A study of Rattus norvegicus with 4 samples.

Results

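Rbm3 and Cirbp are RNA-binding proteins whose messages are known to rise when mammalian cells are cooled. Each gene was taken as the array's probe sets that carry its symbol and no other. One probe set met that rule for each gene, so the description rests on 2 probe sets among the 15923 of the array table, of which 15866 remain without the 57 control probe sets. Total RNA came from RTEC11, an airway line from the rat trachea, made from transgenic rats that carry a temperature-sensitive large T antigen of simian virus 40. All 4 samples carry that transgene. The permissive group (2 arrays) was kept for 3 days at 33 °C, where the antigen is active, and the nonpermissive group (2 arrays) for 3 days at 39 °C, where it loses activity. Temperature and antigen activity therefore changed together, and their parts in any difference between the groups cannot be told apart. The labels give neither the promoter that drives the antigen, nor whether the line is 1 clone, nor whether the 2 arrays of a group came from separate cultures. The p-values below thus only set the difference between groups against the spread of these arrays, and that spread may be technical.

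Rbm3 and Cirbp each hold a single RNA recognition motif, the fold by which many proteins grip single-stranded RNA, followed by a flexible glycine-rich tail. Both proteins bind mRNA and are known, mostly from mouse and human cells, to affect its translation, stability, splicing or choice of polyadenylation site. Their messages rise under mild cooling, when most transcription and translation slow down, and fall on warming. Cirbp was first described in mouse cells shifted to a lower culture temperature, and has since been studied in airway epithelium exposed to cold. Cirbp is also expressed in the testis, where scrotal warming lowers it.

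The upstream sequence of both genes is shown because a short promoter element, the mild cold response element TCCCCGCC, has been described for mouse Cirbp and is bound there by the transcription factor Sp1. The sequences are from RefSeq on the rat build GRCr8. Each begins 250 bases before the start on which its window was built. It ends just before the RefSeq gene record, which reaches upstream of that start. In the Cirbp sequence the capitals mark the exact match to the element. In the Rbm3 sequence, which has no exact match, they mark the 3 matches with 1 mismatch.
Rbm3, chrX:17020655-17020862, plus strand: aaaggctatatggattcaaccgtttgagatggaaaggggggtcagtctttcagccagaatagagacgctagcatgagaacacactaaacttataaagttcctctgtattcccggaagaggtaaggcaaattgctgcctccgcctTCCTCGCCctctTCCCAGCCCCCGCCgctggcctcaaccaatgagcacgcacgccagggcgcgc
Cirbp, chr7:10189624-10189725, minus strand: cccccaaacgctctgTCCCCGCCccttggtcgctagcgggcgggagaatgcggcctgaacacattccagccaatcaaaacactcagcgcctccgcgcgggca

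Motifs were searched on both strands of the window from 250 bases before to 50 bases after the start. The first listed window was used for each of 19005 protein-coding rat genes. For Rbm3 and Cirbp only the first 208 and 102 bases of the window precede the RefSeq gene record. The start from which distances are counted thus lies inside the record, as do some of the Cirbp matches. The element TCCCCGCC lay in 6.41% of these windows. Cirbp held 1 copy, beginning 235 bases before the start and overlapping a GC box, and Rbm3 held 0. The 3 near matches of Rbm3 begin 106, 94 and 88 bases before the start. Counted from 1 at the element's 5′ end, they differ from it by C4T, C5A and T1C. A match with at most 1 mismatch lay in 48.4% of windows, so near matches are common. The GC box GGGCGG lay in 43.1% of windows, with 5 in Cirbp and 0 in Rbm3. The CCAAT box lay in 38.4%, with 1 in Rbm3 and 2 in Cirbp. The inverted repeats of the heat shock element, GAANNTTC (7.76% of windows) and TTCNNGAA (7.79%), were found in neither gene's window. TATAAA lay in 13.1% of windows, with 1 in Rbm3, beginning 160 bases before the start, and 0 in Cirbp. GC content was 56.3% for Rbm3 and 67% for Cirbp against a median of 55.3%. Of the 21 other genes named Rbm followed by a number, 20 had a window, and 0 of those 20 held TCCCCGCC. These matches are letters in a window, and binding was not measured.

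Rbm3 fell steeply at 39 °C. Its deposited intensity, the authors' brightness value on a linear scale, was 11323.6 and 13643.6 at 33 °C and 1426.2 and 1228.2 at 39 °C. Both permissive arrays were far above both nonpermissive ones, and the groups did not overlap. The intensities, with 16 added, were put on the log2 scale and quantile normalized, which sets the arrays to the same distribution. On that scale the mean was 13.59 ± 0.20 (SD, n = 2) at 33 °C and 10.39 ± 0.15 (SD, n = 2) at 39 °C. The log2 change, 39 °C minus 33 °C, was -3.20 ± 0.11 (SE), so the level was 9.22-fold lower at 39 °C, with limma's adjusted p = 1.47e-08. The 4 pairings of a permissive with a nonpermissive array gave falls of 7.76-, 9.03-, 9.41- and 10.96-fold. The choice of arrays thus moved the size of the fall, with 7.76-fold as its smallest value. The plain ratio of the deposited group means, with nothing added, was 9.41.

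Cirbp fell by less. Its deposited intensity was 349.3 and 349.1 at 33 °C and 132.5 and 105.2 at 39 °C. The permissive arrays were nearly identical, the nonpermissive arrays lay well below them, and the groups did not overlap. The log2 mean was 8.56 ± 0.0060 (SD, n = 2) at 33 °C and 6.995 ± 0.15 (SD, n = 2) at 39 °C. The change was -1.57 ± 0.18 (SE) on the log2 scale, a 2.96-fold lower level at 39 °C, with limma's adjusted p = 3.16e-05. The 4 pairings gave falls of 2.76-, 3.20-, 2.74- and 3.18-fold, and the plain ratio of the deposited means was 2.94. All 4 values were above 81.1, the intensity under which a probe set's mean was called dim and left untested. RNA came from whole cultures, so fewer cells making a message and less message per cell cannot be told apart for either gene.

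**Figure D1:**
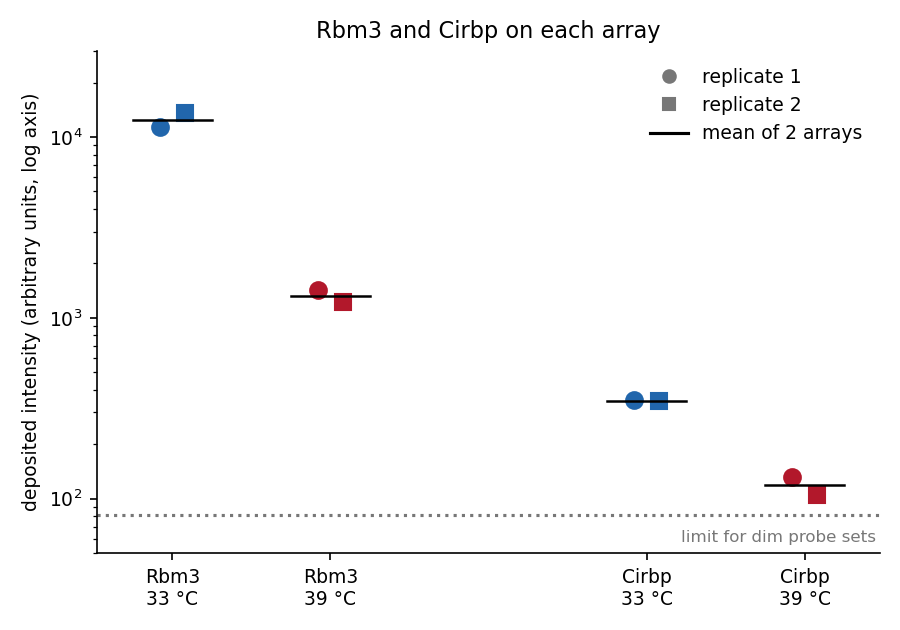
Deposited intensity (log axis) of the Rbm3 and Cirbp probe sets on each of the 4 arrays, with 1 point per array and groups by temperature. Both permissive points lie above both nonpermissive points for each gene, 11323.6 and 13643.6 against 1426.2 and 1228.2 for Rbm3.

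The difference between the log2 values of Rbm3 and Cirbp was taken within each array to set their changes side by side. It was 4.89 and 5.18 at 33 °C and 3.40 and 3.39 at 39 °C. The gap was smaller on both nonpermissive arrays, which is the larger fall of Rbm3 seen within arrays. An exact permutation test of 2 against 2 arrays cannot go below p = 0.333, and no other test of this gap was run. The size of the gap itself has no meaning as a level, since different probes differ in brightness for the same amount of RNA.

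Against the whole array the fall of Rbm3 stood near the extreme. Of 15866 probe sets it had the largest fall on the log2 scale but 1. The 1 ahead was a dim probe set of Tagln, an actin-binding protein of smooth muscle, named here after its values were seen, at 252.2 and 306.8 against 7.9 and 4.1. Among the 9520 probe sets bright enough to be tested, the fall of Rbm3 ranked 1. By size in either direction it ranked 17 of 15866, so 15 probe sets were higher by more than it was lower. By the plain ratio of deposited means it ranked 24, and the 23 probe sets ahead were all dim, with a mean of at most 279.5 at 33 °C. Adding 16 before the logarithm draws in the ratios of such dim probe sets.

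The fall of Cirbp ranked 131 of 15866 on the log2 scale, within the top 0.826%. Among the probe sets tested it ranked 99, and by size in either direction 284. By the plain ratio it ranked 443, with 98 tested and 344 dim probe sets ahead. Cirbp thus stood among the larger falls without being at the extreme.

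Level ranks are given as the place of each probe set in the order of brightness on an array, which depends on the probes as well as on the RNA. Rbm3 ranked 128 and 92 of 15866 on the permissive arrays, within the brightest 0.807% and 0.58%. It ranked 1761 and 2056 on the nonpermissive arrays, or within the brightest 11.1% and 13%. Rbm3 therefore moved from among the brightest probe sets to a place still well above the middle. Cirbp ranked 5530 and 5547 at 33 °C, at 34.9% and 35% from the top, and 8665 and 9032 at 39 °C, at 54.6% and 56.9%. Cirbp crossed the middle of the order.

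**Figure D2:**
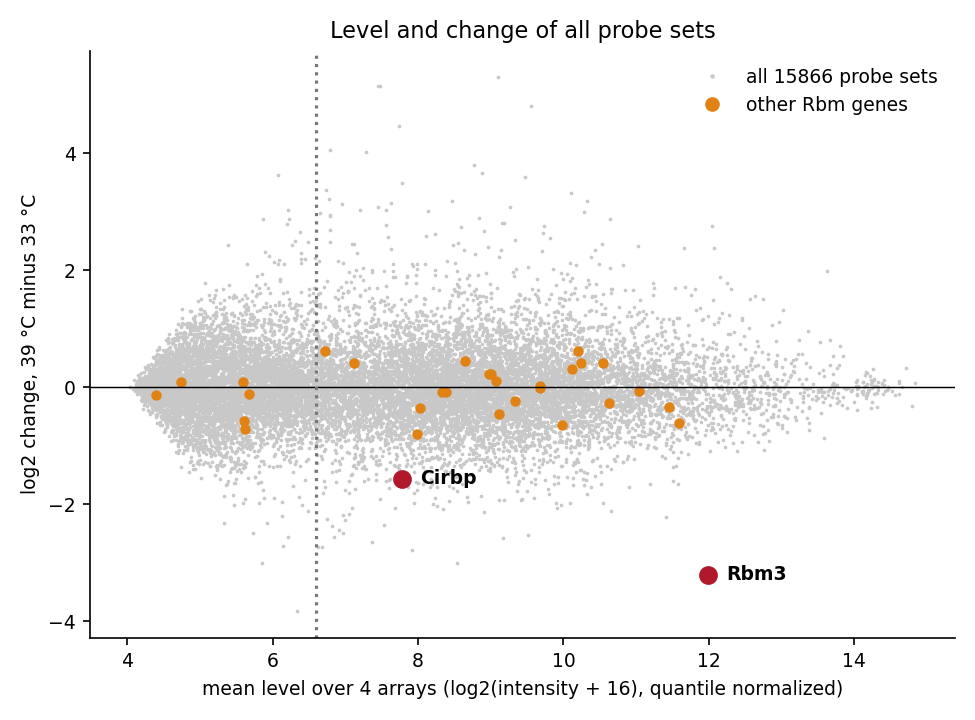
Log2 change (39 °C minus 33 °C) against mean log2 level for the 15866 probe sets (grey), with the other Rbm genes in orange, Rbm3 and Cirbp in red and a dotted line at the dim limit of 6.60. Rbm3 at -3.20 lies at the lower edge among bright probe sets, and Cirbp at -1.57 lies below most.

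Many genes differed between these cultures, and that background frames any count. Of the 9520 probe sets tested, 4494 were called at an adjusted p under 0.05, or 47.2%. Lower calls numbered 2350 (24.7%) and higher calls 2144 (22.5%). The groups did not overlap for 7064 probe sets, or 74.2%. The deposited scale gave 2460 higher and 2112 lower, centring on the median 1823 higher and 3014 lower, and scaling to the poly-A spike-in controls 1081 higher and 4371 lower. A call in either direction is common here under each scaling, and the calls of Rbm3 and Cirbp are read with their ranks of size. The share called rose as dimmer probe sets were filtered out. With no dim filter 3926 of 15866 were called, and with the 60th percentile filter 3435 of 6347. The gene lists below are not matched to this background in brightness. The median change over all probe sets tested was -0.03.

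The other Rbm genes, which share a name for an RNA-binding motif and are mostly splicing or RNA-processing factors, are the closest set by name. Of 21 such genes, represented by 29 probe sets, 20 were tested through their brightest probe set and 1, Rbm24, was dim at 30.5, 41.3, 35.2 and 34.2. Of the 20, 4 were called higher, 6 lower and 10 were not called. That is 50% called, near the background of 47.2%. Their median change was -0.07 and their range -0.81 to 0.62. The groups did not overlap for 14 of the 20, again near the background share of 74.2%. The largest fall among them was 1.75-fold and the largest rise 1.54-fold. Neither reached the change of Cirbp, and the fall of Rbm3 was several times larger. Over all 23 tested probe sets of these genes, 5 were called higher and 6 lower. Rbm39, not called by its brightest probe set at -0.07, had another probe set called higher at 0.41.

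Among the Rbm genes called lower, Rbm34 had intensities of 284.9 and 331.2 at 33 °C and 198.2 and 172.5 at 39 °C, a change of -0.81 ± 0.17 (SE, limma adjusted p = 0.00222). Rbm17, a splicing factor also known as SPF45, went from 1286.3 and 1200.4 to 807.9 and 786.7, a change of -0.65 ± 0.11. Rbm8a, the Y14 subunit of the exon junction complex that marks spliced mRNA, went from 3862.5 and 4031.8 to 2427.2 and 2418.1, a change of -0.61 ± 0.087. The groups did not overlap for any of these 3, as for 74.2% of all probe sets tested. Rbm25, a splicing regulator, changed by -0.46 ± 0.13 and Rbm42 by -0.34 ± 0.089. The call of Rbm25 was lost without permissive replicate 2, at -0.39, or nonpermissive replicate 1, at -0.37.

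Of the 4 Rbm genes called higher, Rbm5, a regulator of alternative splicing, had intensities of 939.9 and 904.8 at 33 °C and 1459.7 and 1429.1 at 39 °C, a change of 0.62 ± 0.10 (SE, limma adjusted p = 0.000504). Rbm47, an RNA-binding cofactor of C-to-U editing, went from 1065.1 and 986.3 to 1393.8 and 1382.7, a change of 0.42 ± 0.10. Rbm45 changed by 0.44 ± 0.16 and Rbm10, a splicing regulator related to Rbm5, by 0.31 ± 0.11. Rises were smaller than the falls of Rbm3 and Cirbp, and their calls depended on scaling. For the poly-A scaling, arrays were brought to a common level of 24 poly-A spike-in controls. The mean log2 level of these controls was 6.63 and 6.69 at 33 °C and 6.99 and 7.09 at 39 °C. These means lie near the dim limit of 6.60, and whether the controls were added to these samples was not tested. The scaling is thus an uncertain reference for absolute level. Under it the median change was -0.35 over all probe sets tested and -0.36 over the other Rbm genes. Of the other Rbm genes, 0 were called higher and 10 lower. All 4 rises lost their call there, at 0.26 for Rbm5, 0.16 for Rbm45, 0.05 for Rbm47 and -0.05 for Rbm10, of which only Rbm10 changed sign. The deposited scale gave 5 higher and 6 lower, and centring on the median gave 2 higher and 7 lower. Rbm45 also lost its call without permissive replicate 1 (0.42), permissive replicate 2 (0.46) or nonpermissive replicate 2 (0.24), and Rbm10 without permissive replicate 1 (0.27) or nonpermissive replicate 2 (0.23).

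**Figure D3:**
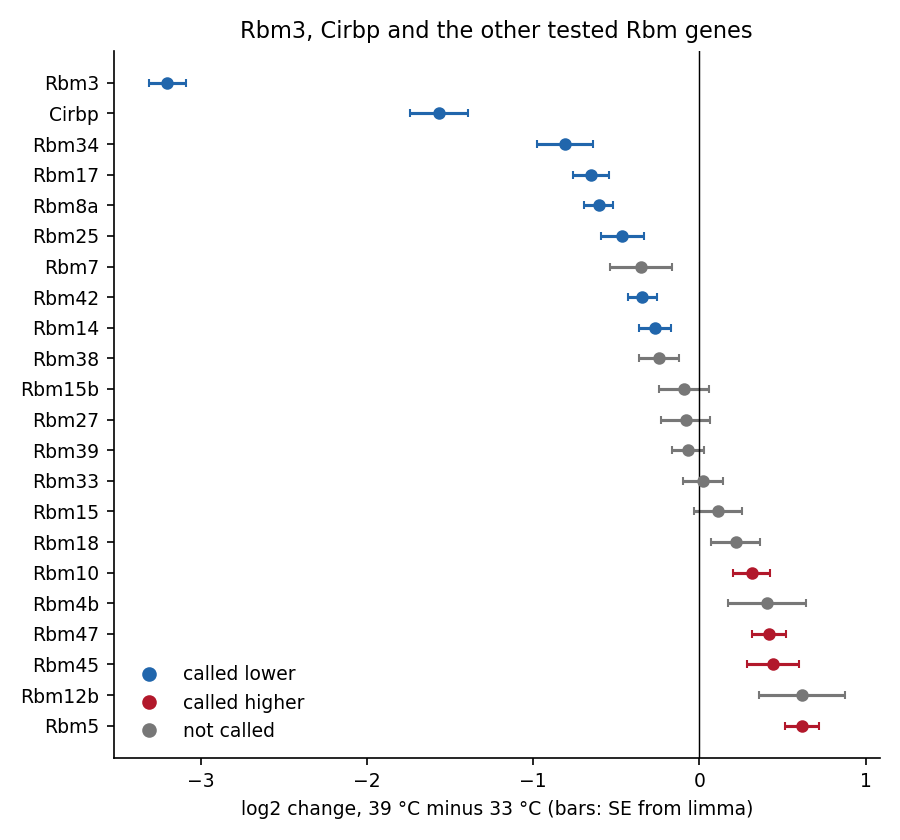
Log2 change with SE for Rbm3, Cirbp and the tested other Rbm genes, in order, with calls by colour. Rbm3 at -3.20 and Cirbp at -1.57 lie outside the other genes, which span -0.81 to 0.62.

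Proteins of like build were read next. Of 16 genes for glycine-rich RNA recognition motif proteins, 12 had a probe set of their own and were tested. Of the 12, 3 were called higher, 6 lower and 3 not called, with a median change of -0.27. That is 75% called, against the background of 47.2%. Rbmx, an RNA-binding protein of splicing and chromosome cohesion, had intensities of 550.1 and 468.5 at 33 °C and 212.3 and 219.3 at 39 °C, and fell by 1.29 on the log2 scale. Hnrnpdl, an RNA-processing factor related to Hnrnpd, went from 2451.2 and 2338.4 to 1234.2 and 1191.5, a change of -0.95. Hnrnpa2b1, which binds RNA during splicing and transport, was called higher at 0.65, and the translational regulator Msi2 at 0.45. The list had 2 higher and 7 lower on the deposited scale, 2 higher and 8 lower after median centring, and 0 higher and 9 lower under the poly-A scaling. Cold shock domain proteins, which bind nucleic acids through another fold, had 3 tested of 8, with Ybx2 higher at 1.05 and Ybx3 lower at -0.48. The share called, 66.7% against the background of 47.2%, rests on these 3 genes. Median centring and the poly-A scaling each gave 1 higher and 2 lower.

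The next list held genes tied to the cold response of Rbm3 or Cirbp in mouse or human cells and general SR splicing proteins. Not every member is reported to act on that response. Of 25 genes 19 were tested, with 2 called higher, 7 lower and 10 not called, and a median change of -0.15. SR splicing proteins made up part of the 7 lower calls. The share called was 47.4%, near the background of 47.2%. Hnrnph1, a splicing factor that keeps a poison exon out of Rbm3 mRNA in cooled cells, had intensities of 3324.0 and 3369.2 at 33 °C and 2260.3 and 2395.3 at 39 °C, a change of -0.45 ± 0.088 (SE, limma adjusted p = 0.00153). Gsk3b, a kinase that phosphorylates human Cirbp, changed by -1.28 and Srpk1, an SR protein kinase, by -1.22. Its relative Srpk2 was called higher at 0.63. The temperature-sensitive SR protein kinases Clk1 and Clk4 were not called, at 0.19 ± 0.16 (SE) and 0.01 ± 0.20 (SE). Clk1 was called at 0.44 without permissive replicate 2, and was at -0.06 without permissive replicate 1. Sp1 was called higher at 0.41, with the call lost without permissive replicate 1 (0.38) or nonpermissive replicate 1 (0.19). The call of Sp1 was also lost after median centring (0.28), under the poly-A scaling (0.05), with no dim filter and with no intensity trend. Tnpo1, an import receptor of Cirbp, was at -0.17, Hsf1, the heat shock factor, at -0.08, and Trpv4, a warmth-sensitive channel, at 0.31, all 3 not called. Tnpo1 was called under the poly-A scaling at -0.52 and Trpv4 on the deposited scale at 0.45. After median centring the list had 1 higher and 8 lower, and under the poly-A scaling 0 higher and 11 lower.

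Of the 11 genes reported as targets or receptors of either protein, 6 were tested, with 3 called higher, 1 lower and 2 not called. The share called was 66.7%, against 47.2% of all probe sets tested. Vegfa, a growth factor whose mRNA RBM3 binds in human cells, had intensities of 411.9 and 428.3 at 33 °C and 163.8 and 153.7 at 39 °C, a change of -1.44 ± 0.15 (SE). Tlr4, a receptor for Cirbp outside the cell, was under the dim limit on the 33 °C arrays at 80 and 57.6. It reached 190.7 and 266.9 at 39 °C, a change of 1.39 ± 0.25. Tlr4 passed the filter through its 39 °C values, so its rise is not ranked against the other genes. Rpa2, a DNA repair protein whose mRNA human Cirbp binds, changed by 0.54, a call lost under the poly-A scaling at 0.18. Rtn3, whose translation mouse Rbm3 raises, was called at 0.28. The call was lost on the deposited scale (0.19), after median centring (0.04), with no dim filter and with no intensity trend. It was also lost without permissive replicate 1 (0.18), nonpermissive replicate 1 (0.35) or nonpermissive replicate 2 (0.22), and the sign turned under the poly-A scaling. Txn1, thioredoxin, was at -0.13 and not called, but it was called lower on the deposited scale (-0.21), after median centring (-0.36) and under the poly-A scaling (-0.59). The deposited scale and median centring each gave 2 higher and 2 lower, and the poly-A scaling 1 higher and 3 lower.

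The circadian clock list was read because Cirbp is known to bind Clock mRNA in mouse fibroblasts. Of 16 genes 13 had a probe set, 6 of those were dim, and 7 were tested. Of the 7, 4 were called higher, 1 lower and 2 not called, with a median change of 0.73. The share called was 71.4%, against the background of 47.2%. Per2, a repressor of the clock, had intensities of 82.6 and 108.4 at 33 °C and 302.4 and 219.6 at 39 °C, a change of 1.16 ± 0.22 (SE, limma adjusted p = 0.00126). The clock repressor Nr1d2 changed by 1.07, and Bhlhe40, another clock repressor, by -1.01. Clock itself was at -0.15 ± 0.12 and not called, but it was called lower under the poly-A scaling at -0.46. Each scaling tried gave 4 higher calls, with 2 lower under the poly-A scaling. The hour at which the cultures were taken is not stated in the labels.

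Heat-inducible chaperones mark the opposite end of the temperature response. Of 13 genes 8 were tested, with 4 called higher, 2 lower and 2 not called, or 75% called against the background of 47.2%. Their median change was 0.28, which turned to -0.09 under the poly-A scaling. Hspb1, a small heat shock protein, had intensities of 820.9 and 717.7 at 33 °C and 3044.5 and 3231.1 at 39 °C, a change of 2.04 ± 0.11 (SE). Serpinh1, a collagen chaperone, changed by 1.28. Hsph1, a large Hsp70 relative, was called higher at 0.39, but not without permissive replicate 2 (0.30) or nonpermissive replicate 1 (0.32). The call of Hsph1 was also lost after median centring (0.23), under the poly-A scaling (0.002) and with no intensity trend. Hspe1 and Hspd1, the paired mitochondrial chaperonins, were called lower at -0.45 and -0.27, the second lost without nonpermissive replicate 2 at -0.20. The call of Hspd1 was also lost with no dim filter and with no intensity trend. Dnajb1, an Hsp40, was at 0.13 and not called. Over the 6 lists 17 of 55 tested genes were called higher and 18 lower, or 63.6% called against the background of 47.2%. That background counts probe sets. With 1 probe set for every gene of the array, 3448 of 7016 were called. Under the 60th percentile filter, which leaves brighter probe sets, 28 of 44 list genes were called, against 3435 of 6347 probe sets. For the 6 lists median centring gave 13 higher and 23 lower, and the poly-A scaling 9 higher and 29 lower.

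**Figure D4:**
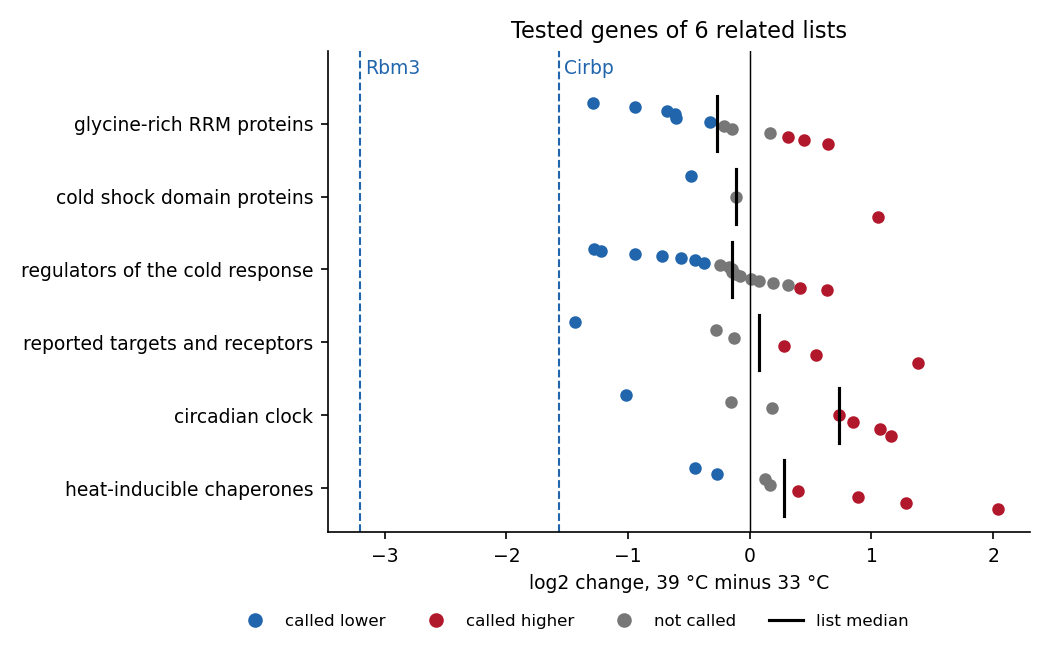
Log2 change of every tested gene in the 6 lists, with a bar at each list's median. Rbm3 (-3.20) lies beyond every gene of the lists, and Cirbp (-1.57) lies beyond every fall, the largest being Vegfa at -1.44.

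The 5 genes most like each member were found by the Euclidean distance between 4 log2 values, each centred on its mean over the 4 arrays, among 7015 candidate genes. For Rbm3 they were Slc7a5 (0.569), Upp1 (0.575), F2rl2 (0.670), Mt2A (0.671) and Klk6 (0.719). Their levels were 6.30- to 8.08-fold lower at 39 °C. Upp1, F2rl2 and Mt2A lay below an intensity of 81.1 on both 39 °C arrays, and Klk6 on nonpermissive replicate 2 at 49.1. The 39 °C means of all of these were under the log2 dim limit of 6.60. They passed the filter through their 33 °C values, so their folds are not ranked against Rbm3. Slc7a5, an amino acid transporter, had intensities of 1144.6 and 923.7 at 33 °C and 112.5 and 132.6 at 39 °C. For Cirbp they were Shmt2 (0.0758), Dnajc7 (0.0877), Grk6 (0.109), Tmem160 (0.110) and Nt5c (0.119), which were 2.89- to 3.04-fold lower. Shmt2, a mitochondrial enzyme of folate metabolism, had intensities of 2186.2 and 2271.0 at 33 °C and 802.5 and 663.6 at 39 °C. The profiles of Rbm3 and Cirbp lay 1.65 apart, since they differ in size of change. The distance rests largely on that size, so the like folds of the listed genes follow from how they were picked.

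The calls of both genes held under every alternative that could be run. Rbm3 changed by -3.06 to -3.60 and Cirbp by -1.28 to -1.83. Rbm3 kept rank 1 among tested falls except with no filter on dim probe sets, where it ranked 2 of 15866, without permissive replicate 2, where it ranked 2, and without nonpermissive replicate 2, where it ranked 3.

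**Figure D5:**
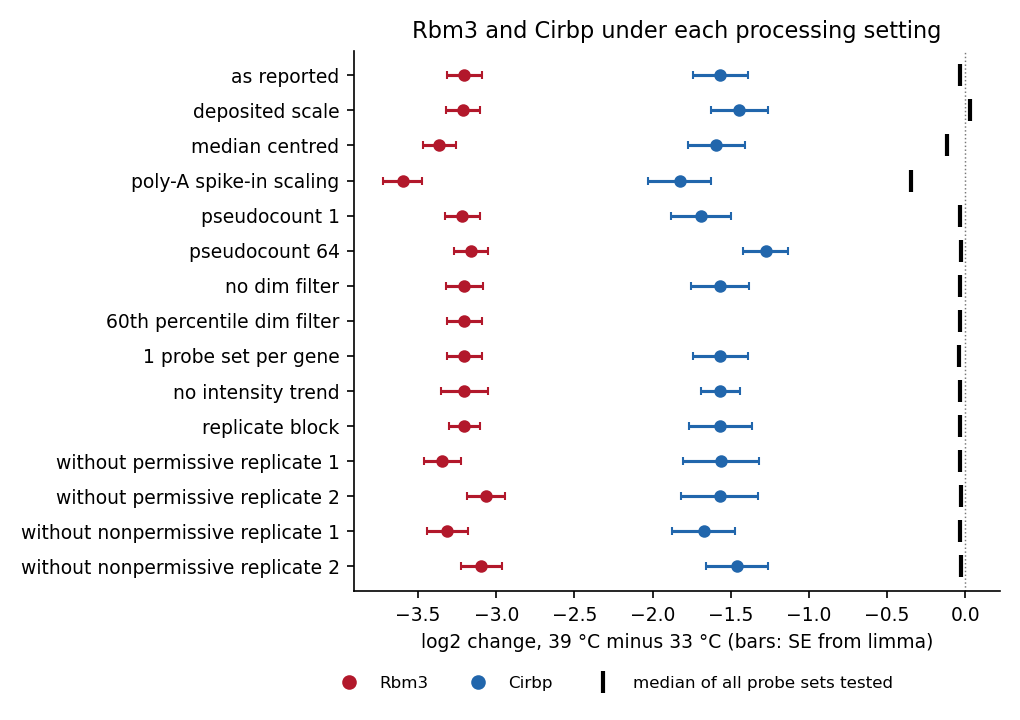
Log2 change of Rbm3 and Cirbp with SE under the main setting and each alternative. Rbm3 spans -3.60 to -3.06 and Cirbp -1.83 to -1.28.

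The line was checked against its label. All 10 epithelial markers had a probe set, and Krt5, a basal cell keratin, was dim on all 4 arrays at 28.7 to 59.6. The keratin Krt14 was bright, at 12515.9 and 12845.6 at 33 °C and 11449.4 and 11668.6 at 39 °C, and was not called. Of the 9 tested, 5 were called higher, among them Dsp (1.13) and Cldn4 (0.87), and 2 lower, Krt7 (-0.45) and Krt18 (-0.36). That is 77.8% called, against 47.2% of all probe sets tested. The poly-A scaling gave 3 higher and 4 lower. Summed intensity of the 10 markers was 75772.2 and 79088.6 at 33 °C and 85422.6 and 85024.0 at 39 °C. Of 7 fibroblast markers only Col3a1 was tested, at 59.1 and 47.9 against 263.5 and 172.8, and it passed the filter through its 39 °C values. The 7 summed to 198.6 and 174.7 at 33 °C and 417.9 and 302.2 at 39 °C. Most of that rise was in Col3a1, and the other 6 were dim and moved either way. The 5 blood and endothelial markers with a probe set were all dim and summed to 52.1 and 86.6 against 184.5 and 120.0. Among them Ptprc changed by -0.47, and Pecam1 was at 64.5 and 6.0 on the 39 °C arrays, while Cd68, Cd3e and Kdr changed upward. None of these probe sets was listed at 0. The fibroblast, blood and endothelial sums were higher at 39 °C and so move with the groups, but through only some of their markers. The part of these markers in the changes of Rbm3 and Cirbp was not tested. Array medians were 152.7 to 174.3, replicate correlations 0.978 and 0.982, and correlations between groups 0.951 to 0.953.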

How the data were processed

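Total RNA of 4 samples was hybridised to Affymetrix rat arrays, 1 array per sample, after biotin labelling, per the labels' protocols. The authors deposited linear intensities, with 1 value for each probe set on each array. From the values, the authors' arrays share a trimmed mean of about 500.1, so they were scaled before deposit. The labels do not state the summarising software. Sample titles gave the groups and the replicate numbers. The number of arrays limits the precision.

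Intensities were taken as log2(intensity + 16) and quantile normalized without the 57 control probe sets. A fold is on this scale, where the change of a dim gene is understated. Of 15866 probe sets, 12783 had 1 symbol, 312 several and 2771 none. Those with a mean under the 40th percentile (log2 6.60, intensity 81.1) were not tested. The two-sided test was limma (version 3.58.1, R 4.3.3) with lmFit, eBayes and an intensity trend, on 2 residual degrees of freedom. The variance of each probe set also borrowed from the others, with a median of 9.23 prior degrees of freedom, so the p-values rest largely on borrowed variance. P-values were adjusted by Benjamini-Hochberg over 9520 probe sets, with a threshold of 0.05. A gene with several probe sets was represented by its brightest. Sequences came from RefSeq (GRCr8), 1 window per gene.

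The members and lists were chosen with earlier results of these data known. The named genes are Rbm3, Cirbp, the 5 largest called rises and falls among other Rbm genes, the 2 largest called rises and falls of each list, a set of always-named genes and the 5 nearest profiles. Same-numbered arrays did not deviate together (correlation -0.00604), so the numbers are not shown to pair the samples. On simulated data of 9520 probe sets, 65.7% of 67 probe sets changed by 0.5 on the log2 scale, 98.5% of 67 changed by 1 and 98.5% of 66 changed by 2 were recovered, with 13 unchanged ones called. The noise was normal and independent, and changed probe sets lay more than 1 above the dim limit on the log2 scale. In the data 47.2% were called and some named genes, such as Tlr4, lie nearer the limit. The simulated rates thus do not describe such genes or the share of false calls here. Alternatives were 3 other scalings, 2 pseudocounts, 2 filters, 1 probe set per gene, no trend, a replicate block and leaving out each array.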

Additional observations from a re-analysis of the deposited data

How the results depend on the processing

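The changes of Rbm3 and Cirbp kept their direction and call under all alternatives run. The total counts called, in either direction, among all probe sets, the other Rbm genes and the 6 lists together stayed within 1.5 times, while the split of higher and lower moved with the scaling. The 60th percentile filter, which tests fewer genes, took the circadian list from 5 to 1 called, the targets from 4 to 2 and the cold shock domain list from 2 to 1. Cirbp was not tested under the 60th percentile filter on dim probe sets. Leaving out 1 array at a time gave -3.34 to -3.06 for Rbm3 and -1.67 to -1.46 for Cirbp, and 3339 to 4202 probe sets called. The replicate block gave -3.20 for Rbm3, -1.57 for Cirbp, 4857 probe sets, 10 other Rbm genes and 35 list genes called, and changed no call of a named gene. Of 47 named genes called, 33 kept their call in every alternative run and 14 did not. Of those 33, 22 were run in all 14 alternatives and 11 in 12 or 13, having been left untested in the others. Signs turned for Rbm10 (-0.049), Rtn3 (-0.19), Dnajb1 (-0.29), Clk1 (-0.13) and Clk4 (-0.23) under the poly-A scaling, for Dnajb1 (-0.056) after median centring and for Hsf1 (0.024) on the deposited scale. The mean level of the spike-in controls lay near the dim limit, and the cause of their differing levels was not tested. Leaving out 1 array gave -0.062 to 0.44 for Clk1 and -0.038 to 0.060 for Clk4. With 2 arrays a group, small changes were recovered less often in the simulated data, and dim probe sets have little signal over background.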
